A study of Mus musculus with 6 samples.

Results

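The genes described here carry the names of nuclear-encoded subunits of the mitochondrial oxidative phosphorylation complexes. They were taken from the deposited expression table by gene name: Ndufa, Ndufb, Ndufc, Ndufs and Ndufv genes for complex I, Sdha to Sdhd for complex II, Uqcr genes for complex III, the numbered Cox4i, Cox5, Cox6, Cox7 and Cox8 genes for complex IV, and Atp5 genes for complex V. Ndufaf assembly factors were left out. Counts, medians and shares follow these names. This includes Atp5sl (a complex I assembly protein), Ndufa4 (found in complex IV) and Cox7a2l (described as joining complexes III and IV). The names gave 85 of the 24354 genes in the table, 38 in complex I, 4 in complex II, 8 in complex III, 18 in complex IV and 17 in complex V. Cells were epidermal basal cells of mouse embryos at E18.5, sorted for high surface α6 integrin, and all 6 samples carry the strain label C57BL6. The WT group had 3 libraries and the mutant group had 3 libraries from embryos homozygous for Pik3ca H1047R, an activating variant of the catalytic subunit of phosphoinositide 3-kinase. The labels name no Cre line or other driver for the variant, and they do not say whether the libraries of a group came from separate embryos. The spread that the p-values rest on is thus the one between these samples, and it may be technical. In bulk RNA of this kind, fewer cells of a type and less RNA per cell cannot be told apart.

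Complexes I to IV form the respiratory chain of the inner mitochondrial membrane, which passes electrons from NADH and succinate to oxygen and pumps protons, and complex V is the ATP synthase that uses the proton gradient. Most subunits are encoded in the nucleus, a few in mitochondrial DNA, and complex II is nuclear throughout. In the epidermis, mitochondria are also known to take part in keratinocyte differentiation through reactive oxygen species. Values below are FPKM, fragments counted per kilobase of transcript and scaled by library size, which can be compared between genes. The 6 libraries summed to between 538627 and 767148 FPKM, and the number of reads behind them is unknown. The deposited interval around a member's value had a median half-width of 32.8% of the value. The basal keratin genes Krt5 (11360 to 13033 FPKM) and Krt14 (7792 to 10682 FPKM) were abundant in every library and did not pass the test. Of 10 basal markers, 6 fell (Dst, Lamb3, Itgb4, Lama3, Itga6 and Col17a1, with log2 fold changes from -1.004 to -0.358) and Krt15 rose, with a list median of -0.38. Summed suprabasal markers were at 3862 to 4664 FPKM in WT and 11752 to 14347 FPKM in mutant libraries, most of it Krt1 and Krt10. Of 8 tested suprabasal markers, Krt1, Krt10, Dsg1a and Dsc1 rose, Lor fell, and Krtdap, Sbsn and Ivl did not pass. Sums of the markers of other cell types were lower in all mutant libraries for skeletal muscle (38.2 to 50.8 FPKM in WT, 26.1 to 29.2 in mutant libraries), dermal fibroblasts (717 to 869.7 and 479.7 to 528), erythroid cells (231 to 313 and 90.3 to 157), melanocytes (15.8 to 21.6 and 11.0 to 14.7) and immune cells (7.39 to 8.66 and 4.93 to 5.45). Fat marker sums overlapped (6.26 to 59.7 FPKM in WT, 9.55 to 23.1 in mutant libraries). Sparc and Dcn led the fibroblast sum (means of 310 and 272 FPKM in WT). The collagen genes Col1a1, Col1a2 and Col3a1 overlapped between groups and did not pass. Tested markers called lower were 5 of 8 for muscle, 3 of 8 for fibroblasts and 3 of 6 for erythroid cells. They were 2 of 3 for melanocytes, 3 of 4 for immune cells and 0 of 3 for fat, beside 22.8% of all tested genes. Only the muscle marker Mybpc1 was called higher (log2 fold change 0.27). The part of these marker differences in the results below was not tested.

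Of the 85 genes, 80 averaged 1 FPKM or more across the libraries and were tested with limma on log2(FPKM + 1), in a fit over all 11385 genes that passed this filter. At a Benjamini-Hochberg adjusted p under 0.05, 15 members were lower in mutant libraries and 1 was higher. These are 18.8% and 1.25% of the tested members, beside 22.8% of all tested genes called lower and 23.2% called higher. The remaining 64 members did not pass. With all 6 libraries weighted equally and values as deposited, the share called lower was thus near that of all genes, whereas few members were called higher. With library weights the lower share was 62.5%, beside 31.1% of all genes. The median log2 fold change was -0.145 over the tested members and 0.01 over all tested genes, and 58 members had a negative value. Groups did not overlap for 17 members with lower and 3 with higher mutant values, 21.2% and 3.75% of the members, beside 26.9% and 29.1% of all tested genes. By complex, 7 of 38 were lower and 1 higher in complex I, 0 of 4 changed in complex II (0 also at an unadjusted limma p under 0.05), 1 of 8 was lower in complex III, 4 of 13 in complex IV and 3 of 17 in complex V. Median log2 fold changes were -0.11, 0.04, -0.13, -0.32 and -0.23 in that order. Most changes were small: 11 of the 16 called members moved by less than 1.5-fold on the log2(FPKM + 1) scale.

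**Figure D1:**
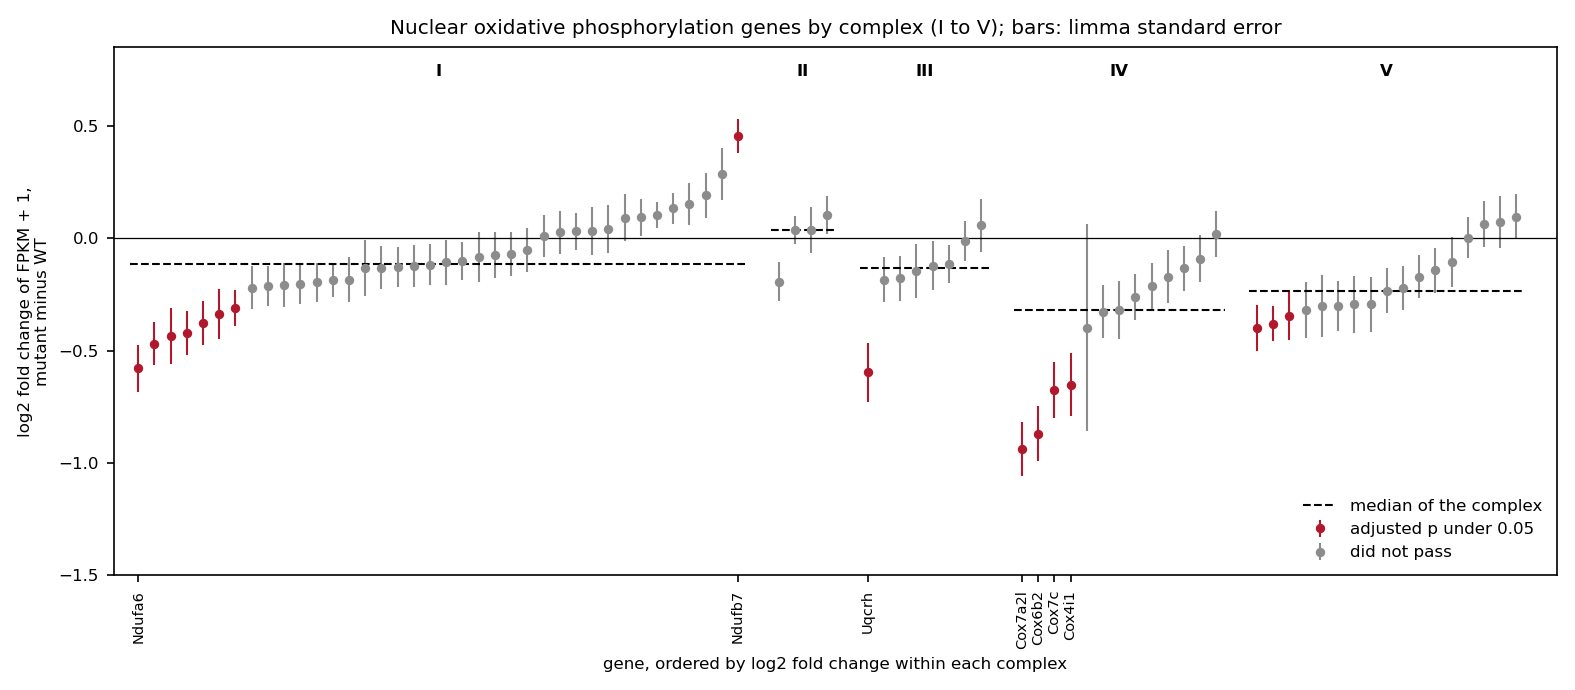
Log2 fold change of FPKM + 1 (mutant minus WT, vertical axis) of each of the 80 tested genes, ordered within complexes I to V, with the limma standard error as bar and the median of each complex as dashed line. The 16 called genes are red; 15 lie below 0 and Ndufb7 alone lies above it. Names mark the 7 genes called in the same direction under every alternative.

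These counts moved with the scaling of the libraries and with single libraries. When all libraries were set to equal totals, the median of all tested genes moved to 0.303 and that of the members to 0.185, with 37 members higher and 6 lower (46.2% and 7.5%, beside 47.2% and 7.4% of all genes). Quantile normalization gave 31 higher and 9 lower members and a member median of 0.10 (38.8% and 11.2%, beside 26.5% and 21.2% of all genes). With trends in transcript length and GC content removed, 10 of 79 were higher and 14 lower (12.7% and 17.7%, beside 28.1% and 22.8%). Scaling by the median of ratios gave 1 higher and 17 lower members and a member median of -0.157 (1.25% and 21.25%, beside 22.3% and 23.8% of all genes). Relative to the median of all tested genes, the member median was -0.155 as deposited, -0.117 with equal totals, -0.052 without length and GC trends and 0.069 after quantile normalization. The negative median of the list thus turned positive with equal totals and after quantile normalization, and was negative as deposited, with the median of ratios and without length and GC trends. Tested members had a median transcript length of 659 bases (n = 79), against 2088 bases for all tested genes (n = 10978). The 2085 tested genes under 1000 bases that were neither members nor cytosolic ribosomal proteins had a median log2 fold change of -0.06, with 24.6% lower and 15.8% higher. Cytosolic ribosomal protein genes took 28.5% to 32.2% of a WT library's summed FPKM and 20.3% to 21.3% of a mutant library's. The members took 2.30% to 2.45% in WT and 2.52% to 2.59% in mutant libraries.

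**Figure D2:**
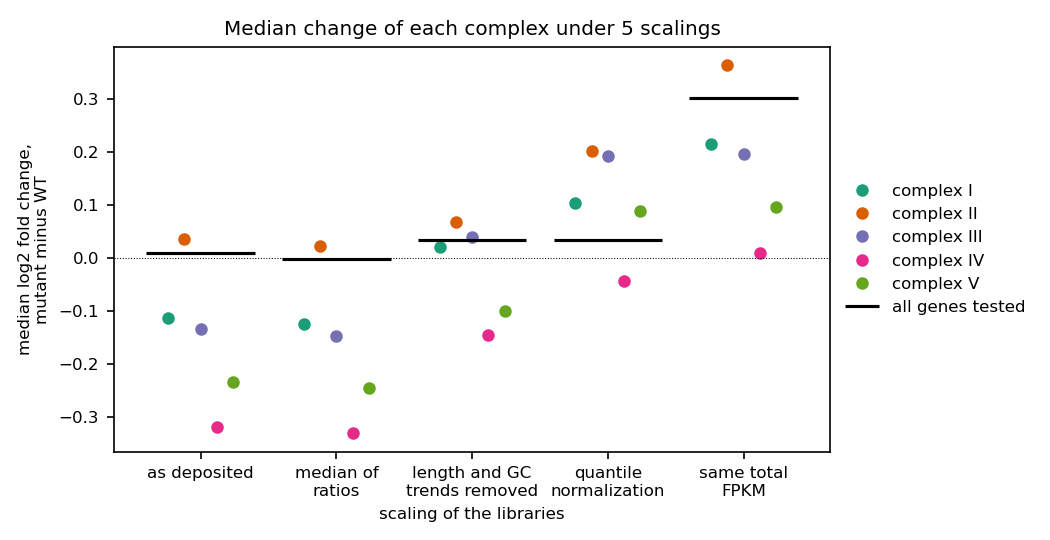
Median log2 fold change (mutant minus WT, vertical axis) of the tested genes of each complex (coloured points) and of all tested genes (black lines) under 5 scalings of the libraries (horizontal axis). All 5 complexes shift upward with equal totals, and complex IV has the lowest median under each scaling.

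Members moved together from library to library. WT replicate 3 was the lowest of the WT libraries for 77 of the 80 tested members, and mutant replicate 3 was the highest of the mutant libraries for 75 of them. Over all tested genes, the same libraries were lowest for 39.3% and highest for 42.8%. The median member lay 0.18, 0.12 and -0.06 from its own 6-library mean in WT replicates 1 to 3 on the log2 scale, and -0.18, -0.14 and 0.09 from it in mutant replicates 1 to 3. WT replicate 3 and mutant replicate 3 thus stood nearest to the other group. Without WT replicate 3, 29 members were called lower (36.2%, beside 21.8% of all genes), and without mutant replicate 3, 36 were (45.0%, beside 22.8%). Leaving out WT replicate 1, WT replicate 2 or mutant replicate 2 gave 9 lower members each (11.2%, beside 17.0% to 17.8%), and leaving out mutant replicate 1 gave 10 (12.5%, beside 17.8%). Leaving out WT replicate 1 also raised the count of higher members to 2 (2.5%, beside 17.9% of all genes). What set these libraries apart for these genes was not tested.

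**Figure D3:**
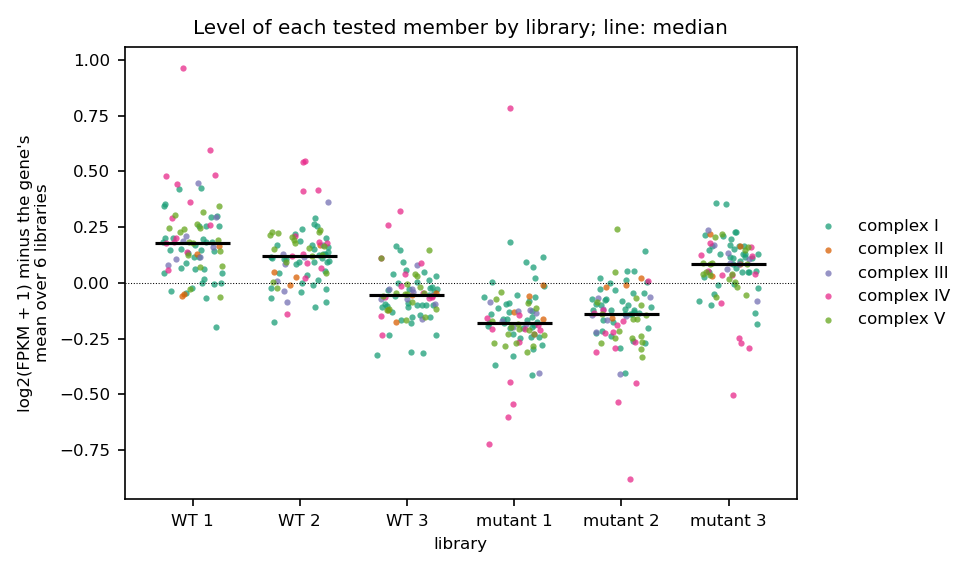
Level of each of the 80 tested genes in each library as log2(FPKM + 1) minus the gene's mean over the 6 libraries (vertical axis), coloured by complex, with the median of each library as a line. The medians of WT replicate 3 (-0.06) and mutant replicate 3 (0.09) lie closer to 0 than those of the other libraries of their groups.

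Sums over a complex showed the same overlap. Summed FPKM of all 85 genes was 18414, 17616 and 15457 in WT replicates 1 to 3 and 13638, 13931 and 16537 in mutant replicates 1 to 3, so that mutant replicate 3 exceeded WT replicate 3. A share of this sum is not altered by a single scaling factor per library. Shares were computed on the deposited values, not after quantile normalization or removal of length and GC trends. Complex IV took 23.7%, 23.3% and 23.0% of it in WT replicates 1 to 3 and 21.1%, 21.1% and 21.5% in mutant replicates 1 to 3. All mutant shares of complex IV lay under all WT shares. Complex I took 24.1% to 24.6% in WT and 25.6% to 26.4% in mutant libraries, and complex II took 2.08% to 2.19% and 2.41% to 2.54%. For both, every mutant share lay above every WT share. Complex III (11.9% to 12.3% in WT, 11.8% to 12.1% in mutant libraries) and complex V (37.9% to 38.4% and 38.1% to 38.5%) overlapped. Without Cox4i1 and Cox7a2l, a choice made after their values were seen, the difference for complex IV shrank from -2.06 to -0.47 percentage points, with 17.9% to 18.3% in WT and 17.5% to 17.7% in mutant libraries. That for complex I went from 1.735 to 1.281 percentage points and that for complex II from 0.336 to 0.305, both still without overlap. Complexes III (12.3% to 12.6% against 12.7% to 13.2%) and V (39.8% to 40.3% against 40.6% to 41.1%) were then lower in all mutant libraries. Shares are of mRNA levels per length, and they sum to the whole, so a lower share of one complex raises those of the others.

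**Figure D4:**
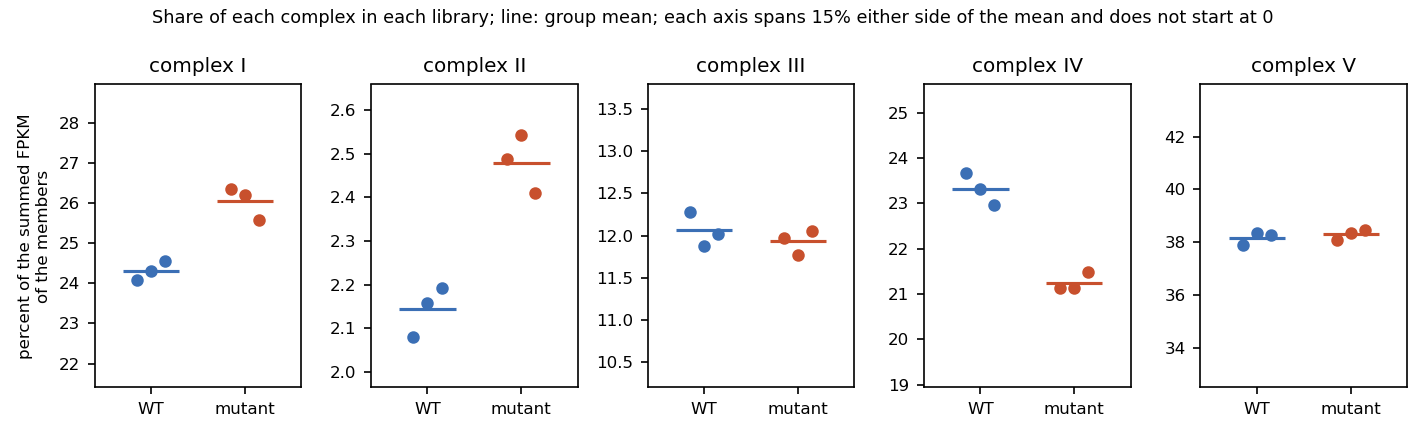
Percent of the summed FPKM of the 85 genes that each complex takes (vertical axes, which do not start at 0) in each WT and mutant library (points), with the group means as lines. Complex IV is lower in all 3 mutant libraries, complexes I and II are higher, and complexes III and V overlap.

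Complex I, the NADH dehydrogenase, is the largest of the complexes. Of its 38 nuclear genes, 7 fell and 1 rose, with a median log2 fold change of -0.11. Ndufa6 (chromosome 15, 82350139 to 82354291), an accessory subunit of the LYR protein family, was at 187, 170.2 and 154 FPKM in WT replicates 1 to 3 and 107, 105 and 129.5 FPKM in mutant replicates 1 to 3. The groups did not overlap, and Ndufa6 fell by 0.58 in log2 (SE 0.105, limma adjusted p = 0.00315). Ndufa7 (chromosome 17, 33824572 to 33838316) was at 192, 163 and 153 FPKM in WT and 118, 116 and 130.2 FPKM in mutant libraries, again without overlap, and fell by 0.47 (limma adjusted p = 0.00522). Ndufs7, a core subunit that holds the last iron-sulphur cluster before quinone, fell from 99.2 ± 7.56 to 79.7 ± 5.23 FPKM (SD, n = 3 in each). Ndufb5, Ndufb11 and Ndufa2 fell by 0.42, 0.44 and 0.34 on the log2 scale. The values of Ndufa2 overlapped between groups, with 133 FPKM in mutant replicate 3 above 129 FPKM in WT replicate 3.

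Ndufb7, an accessory subunit on the intermembrane space side of complex I, went the other way. It was at 60.5, 61.5 and 55.7 FPKM in WT replicates 1 to 3 and at 79.0, 76.8 and 89.3 FPKM in mutant replicates 1 to 3 (chromosome 8, 83566758 to 83571623). Every mutant value lay above every WT value, and Ndufb7 rose 1.38-fold (log2 fold change 0.46, SE 0.0758, limma adjusted p = 0.00214). Relative to the summed FPKM of the rest of complex I, Ndufb7 stood at 1.44% ± 0.0551 in WT and 2.18% ± 0.0559 in mutant libraries (SD, n = 3 in each). On the same measure Ndufa6 stood at 4.25% ± 0.128 and 3.06% ± 0.104 (SD, n = 3 in each). For all 16 called members this share of the rest of their complex did not overlap between groups in the deposited values. Since these members were picked by their call, that is a description.

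The members of complex I with the highest mean levels were Ndufa4 and Ndufa4l2. Ndufa4 was named for complex I and was later found in complex IV. It was at 181, 173 and 147 FPKM in WT and 187, 191 and 235 FPKM in mutant libraries, without overlap (log2 fold change 0.29, 95% interval 0.02 to 0.55, limma adjusted p = 0.075). Ndufa4l2, its paralog and a known target of hypoxia signalling, was at 184, 199.7 and 207 FPKM in WT and 183, 174 and 162 FPKM in mutant libraries (log2 fold change -0.19, 95% interval -0.36 to -0.01, limma adjusted p = 0.0802). Neither passed the test. Of the pair's summed FPKM, Ndufa4 took 41.5% to 49.6% in WT and 50.5% to 59.2% in mutant libraries. Exons of Ndufa4l2 overlap those of Shmt2 on the other strand, so its level is uncertain. The lowest complex I member was Ndufa11, at 16.4 to 18.8 FPKM in WT and 16.4 to 20.4 FPKM in mutant libraries.

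Complex II, succinate dehydrogenase, also belongs to the tricarboxylic acid cycle, and none of its 4 genes passed. The flavoprotein gene Sdha was at 60.4, 64.5 and 60.0 FPKM in WT and 61.9, 61.6 and 66.2 FPKM in mutant libraries (log2 fold change 0.04, 95% interval -0.10 to 0.18). The iron-sulphur subunit gene Sdhb was at 129.9, 118 and 105 FPKM in WT and 108, 120.2 and 133 FPKM in mutant libraries (0.04, 95% interval -0.20 to 0.27). The membrane anchor genes were at 115, 116 and 99.7 FPKM in WT and 91.8, 92.1 and 105 FPKM in mutant libraries for Sdhc (-0.19, -0.39 to 0.01). For Sdhd they were 77.6, 82.2 and 74.1 FPKM and 77.4, 80.3 and 94.1 FPKM (0.10, -0.10 to 0.30). All 4 overlapped between groups, and the intervals are those of single genes at 95%, without adjustment.

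In complex III, the cytochrome bc1 complex, a single gene passed. Uqcrh (chromosome 4, 116066965 to 116075070), the acidic hinge protein that binds cytochrome c1, was at 657, 619 and 509 FPKM in WT replicates 1 to 3 and 363, 362 and 455 FPKM in mutant replicates 1 to 3. The groups did not overlap, and Uqcrh fell by 0.60 in log2 (SE 0.131, limma adjusted p = 0.00749). Relative to the rest of complex III it stood at 40.2% ± 2.27 in WT and 28.8% ± 0.682 in mutant libraries (SD, n = 3 in each). Uqcrc1, a core protein and the next most abundant, was at 336, 319 and 289 FPKM in WT and 257, 262 and 313 FPKM in mutant libraries, which overlapped (log2 fold change -0.19, limma adjusted p = 0.165). The Rieske iron-sulphur protein gene Uqcrfs1 was at 96.8 ± 5.07 and 96.3 ± 10.8 FPKM (SD, n = 3 in each; 95% interval of the log2 fold change -0.22 to 0.19). Cyc1, the cytochrome c1 gene of the same complex that the naming rule does not take, was at 171 ± 12.4 and 163 ± 14.8 FPKM (SD, n = 3 in each; limma adjusted p = 0.574).

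Complex IV, cytochrome c oxidase, held 4 of the 5 largest decreases. Cox7a2l (chromosome 17, 83501917 to 83514333) encodes a protein described as joining complexes III and IV into supercomplexes. Whether it does so in the strain of these samples was not tested. Cox7a2l was at 435, 419.8 and 344 FPKM in WT replicates 1 to 3 and 189, 198 and 238 FPKM in mutant replicates 1 to 3. The groups did not overlap, and Cox7a2l fell 1.92-fold (log2 fold change -0.94, SE 0.121, limma adjusted p = 0.000649). Cox4i1 (chromosome 8, 120668225 to 120674209), the largest nuclear subunit of the complex, was at 782, 747 and 598 FPKM in WT and 413, 411 and 528 FPKM in mutant libraries, again without overlap. It fell by 0.65 in log2 (SE 0.14, limma adjusted p = 0.00672). The small membrane subunit gene Cox7c fell from 176 ± 23.7 to 109.9 ± 13.2 FPKM (SD, n = 3 in each; log2 fold change -0.68, limma adjusted p = 0.00322). Relative to the rest of complex IV, Cox7a2l stood at 11.1% ± 0.323 in WT and 7.13% ± 0.106 in mutant libraries (SD, n = 3 in each).

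Several complex IV subunits have tissue isoforms. The testis form Cox6b2 was measured at 22.5, 24.2 and 20.6 FPKM in WT and 9.49, 13.1 and 13.1 FPKM in mutant libraries. It fell 1.88-fold (log2 fold change -0.87, SE 0.122, limma adjusted p = 0.000976). The widely expressed form Cox6b1 was at 557, 527 and 451 FPKM in WT and 379, 379 and 465 FPKM in mutant libraries, which overlapped and did not pass (log2 fold change -0.33, limma adjusted p = 0.0517). Cox6b2 took 3.89% to 4.38% of the pair's summed FPKM in WT and 2.44% to 3.35% in mutant libraries. The muscle forms were near 0: Cox6a2 at 0.121 to 0.867 FPKM over the 6 libraries, Cox7a1 at 0 to 2.59 FPKM and Cox8b at 0 to 1.97 FPKM. Their widely expressed partners took at least 98.5% of each pair's sum in every library. The muscle form of subunit 7a, Cox7a1, was highest in WT replicate 1 (2.59 FPKM) and mutant replicate 1 (2.16 FPKM), and so was the fat marker Fabp4 (30.8 and 14.4 FPKM) within each group. The brown fat marker Ucp1 was at 0.113 and 0.273 FPKM in those libraries and at 0 in the other 4. The fat markers Adipoq, Plin1 and Cfd were also highest in replicate 1 of each group. Cidea (1.32 FPKM) and Lep (0.0181 FPKM) were instead highest among WT libraries in replicate 2. Elovl3 was highest among mutant libraries in replicate 3 (1.08 FPKM). A link between Cox7a1 and these markers was not tested. The lung form Cox4i2 reached at most 0.617 FPKM, and the testis forms Cox7b2 and Cox8c were listed at 0 in every library. Those 5 genes with means under 1 FPKM, namely Cox4i2, Cox6a2, Cox7b2, Cox8b and Cox8c, were not tested.

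The partners themselves did not pass. Cox8a was at 536, 476 and 460.1 FPKM in WT and 386, 383 and 459 FPKM in mutant libraries, just short of overlap (log2 fold change -0.26, limma adjusted p = 0.0692). Cox7a2 was at 214, 189 and 159 FPKM and 144, 134 and 172 FPKM, and Cox6a1 at 483, 432 and 407 FPKM and 386, 392 and 464 FPKM. Both overlapped, with limma adjusted p = 0.0764 for Cox7a2 and 0.4996 for Cox6a1. Cox5a had the single positive value of the complex (0.02, limma adjusted p = 0.901).

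**Figure D5:**
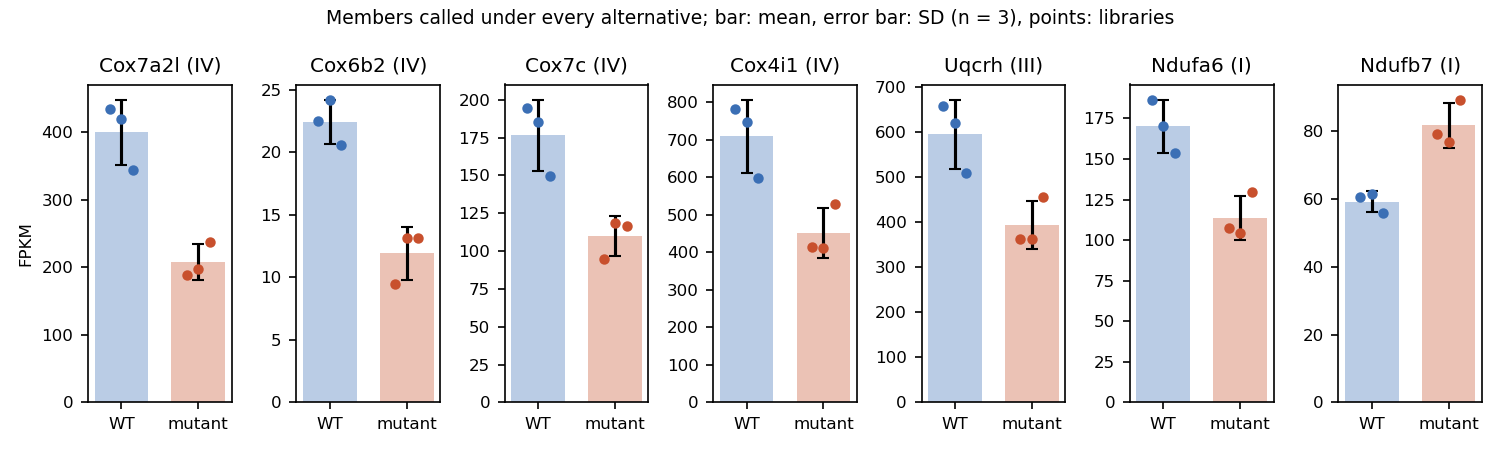
FPKM (vertical axes, from 0) of the 7 members that were called in the same direction under every alternative tried, in WT and mutant libraries (points), with mean (bar) and SD (n = 3). The 6 lower members and Ndufb7 show no overlap between groups.

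Complex V, ATP synthase, was the most abundant, led by the catalytic β subunit gene Atp5b at 1122, 1076 and 970.1 FPKM in WT and 806, 806 and 962 FPKM in mutant libraries. Atp5b did not overlap between groups and did not pass (log2 fold change -0.30, 95% interval -0.56 to -0.04, limma adjusted p = 0.0584). The α subunit gene Atp5a1 was at 627, 615 and 550.0 FPKM in WT and 478, 494 and 567 FPKM in mutant libraries, which overlapped (limma adjusted p = 0.103). Of the 5 genes of the F1 head and its central stalk, only Atp5d (338.7 ± 32.4 to 266 ± 29.7 FPKM, SD, n = 3 in each) passed, as lower (limma adjusted p = 0.0291). Among the 4 peripheral stalk genes (Atp5f1, Atp5h, Atp5j and Atp5o) and the 3 membrane genes Atp5j2, Atp5k and Atp5l, 0 passed. At an unadjusted limma p under 0.05 there were 1 of 4 (Atp5o) and 2 of 3 (Atp5j2 and Atp5l), all lower. At least 22.8% of all tested genes pass that threshold as lower, since every gene called lower does. Atp5k lay at 450.5 to 489 FPKM in WT and 451 to 563 FPKM in mutant libraries. Atp5sl, which carries the family name and encodes a complex I assembly protein, fell from 17.8 ± 0.513 to 13.5 ± 1.38 FPKM (SD, n = 3 in each; log2 fold change -0.38, limma adjusted p = 0.00539).

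The c ring of ATP synthase is built from a single mature protein that Atp5g1, Atp5g2 and Atp5g3 all encode, with different import sequences. Atp5g2 was at 560.3, 544 and 503 FPKM in WT and 375, 387 and 460.0 FPKM in mutant libraries, and fell by 0.40 in log2 (SE 0.101, limma adjusted p = 0.0137). Atp5g3 was at 555, 552 and 479 FPKM and 452, 462 and 563 FPKM, and Atp5g1 at 201, 188 and 171 FPKM and 185, 179 and 222 FPKM. Neither passed (limma adjusted p = 0.466 and 0.64). Within the family's summed FPKM, Atp5g2 took 42.9% ± 0.671 in WT and 37.2% ± 0.347 in mutant libraries (SD, n = 3 in each). Atp5g1 took 14.9% ± 0.332 and 17.9% ± 0.42, and Atp5g3 took 42.2% ± 0.751 and 44.9% ± 0.293 (SD, n = 3 in each). The shares of all 3 genes were separated between groups, with more spread between groups than among replicates.

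Of the 16 called members, 7 were called in the same direction under all 18 alternatives: Cox7a2l, Cox6b2, Cox7c, Cox4i1, Uqcrh and Ndufa6 as lower and Ndufb7 as higher. Over these alternatives the log2 fold change of Cox7a2l ranged from -1.05 to -0.56 and that of Ndufb7 from 0.36 to 0.78. The smallest decreases of Cox4i1 (-0.32), Uqcrh (-0.27) and Ndufa6 (-0.25) came with equal totals. Ndufa7 and Atp5sl lost their call with equal totals alone, and Ndufb5 lost it there and at a threshold of 0.01. For Atp5sl this covers 17 alternatives, since it had no transcript length and was not in the fit without length and GC trends. Ndufs7, Atp5g2, Ndufb11, Atp5d and Ndufa2 lost it in 7 to 10 alternatives, including equal totals, quantile normalization and leaving out WT replicate 1, WT replicate 2 or mutant replicate 2. Exons of several called members, among them Cox4i1, Ndufa2, Ndufb5, Ndufb11 and Atp5d, overlap those of a gene on the other strand. The sources used here do not say whether the libraries keep the strand, so reads of Emc8, for example, may be included in the value of Cox4i1. Many small subunit genes also have processed pseudogenes, and how shared reads were assigned is not stated either. The table gives Ndufs7 and Atp5d one wide locus on chromosome 10 (79697305 to 80369637) that also spans their neighbours.

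Promoters were examined for binding motifs of factors known to act on these genes: nuclear respiratory factor 1 (core GCGCATGC), GABPA and other ETS factors (CCGGAAG), YY1 (AAGATGGC), NF-Y (CCAAT) and the estrogen-related receptors (TCAAGGTCA). Each was searched on both strands in RefSeq windows (GRCm38.p6) from 250 bases before to 50 bases after the start of a gene, where 72 windows covered 67 members. Matches may overlap. No window was used for 18 members, among them Atp5a1, Atp5f1, Atp5s, Atp5sl, Cox4i1, Cox4i2, Cox6a2, Cox6c, Cox8c, Ndufa2, Ndufa4l2, Ndufb9, Ndufs1, Sdhc, Uqcrb, Uqcrc2 and Uqcrq. The NRF1 core was in 13.9% of member windows, 5.37% of the 10976 windows of other tested genes and 2.71% of all 32851 windows. The YY1 core was in 12.5%, 4.53% and 2.75%, and the ETS core in 22.2%, 18.2% and 8.86%. CCAAT was in 41.7%, 37.7% and 37.4%, and the estrogen-related receptor motif was in 2.78% (2 members, Atp5g3 and Sdhd), 0.273% and 0.423%. Of 11 members called lower that have a window, 2 (Ndufa6 and Atp5g2) held the NRF1 core, 1 (Uqcrh) the ETS core 1 (Ndufs7) the YY1 core and 4 CCAAT. A match is a sequence feature and not a measured binding site.

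The windows of 5 called members are shown 5′ to 3′ on the strand of the gene, with motif matches in capitals, because they differ in motif content while 4 of the genes fell and Ndufb7 rose. They lie at chr17:83514284-83514583 (Cox7a2l, minus strand), chr4:116075021-116075320 (Uqcrh, minus), chr15:82354242-82354541 (Ndufa6, minus), chr15:102670998-102671297 (Atp5g2, minus) and chr8:83566508-83566807 (Ndufb7, plus). The Cox7a2l window holds no match.
Cox7a2l: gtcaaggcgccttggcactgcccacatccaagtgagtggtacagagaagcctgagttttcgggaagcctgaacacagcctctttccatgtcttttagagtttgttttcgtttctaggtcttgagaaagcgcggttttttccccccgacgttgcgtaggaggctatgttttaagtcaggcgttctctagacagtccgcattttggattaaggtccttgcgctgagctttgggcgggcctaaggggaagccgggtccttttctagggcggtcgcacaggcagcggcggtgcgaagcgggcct
Uqcrh: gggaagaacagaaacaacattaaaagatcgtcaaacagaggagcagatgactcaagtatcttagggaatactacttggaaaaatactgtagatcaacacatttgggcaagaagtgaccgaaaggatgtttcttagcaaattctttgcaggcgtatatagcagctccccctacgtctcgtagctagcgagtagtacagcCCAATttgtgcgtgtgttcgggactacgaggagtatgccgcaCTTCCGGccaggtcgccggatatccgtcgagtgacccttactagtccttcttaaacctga
Ndufa6: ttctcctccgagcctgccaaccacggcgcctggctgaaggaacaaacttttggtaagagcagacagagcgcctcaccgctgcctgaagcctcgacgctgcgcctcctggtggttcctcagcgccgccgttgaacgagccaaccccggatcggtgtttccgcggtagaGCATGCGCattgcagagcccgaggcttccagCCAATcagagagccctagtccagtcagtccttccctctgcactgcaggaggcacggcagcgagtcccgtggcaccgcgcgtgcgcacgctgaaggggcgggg
Atp5g2: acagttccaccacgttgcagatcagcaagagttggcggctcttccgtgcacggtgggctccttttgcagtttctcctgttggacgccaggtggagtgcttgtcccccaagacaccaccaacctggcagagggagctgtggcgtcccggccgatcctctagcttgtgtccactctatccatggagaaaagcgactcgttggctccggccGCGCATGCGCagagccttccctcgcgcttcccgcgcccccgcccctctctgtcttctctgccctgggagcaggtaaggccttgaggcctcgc
Ndufb7: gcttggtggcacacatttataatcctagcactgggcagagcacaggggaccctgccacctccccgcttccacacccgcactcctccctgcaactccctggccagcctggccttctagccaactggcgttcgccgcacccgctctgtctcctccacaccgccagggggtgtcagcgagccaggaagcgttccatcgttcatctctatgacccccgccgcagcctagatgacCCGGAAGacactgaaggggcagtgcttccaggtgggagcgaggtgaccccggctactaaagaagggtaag
In Uqcrh an ETS core on the reverse strand begins 10 bases before the start and a CCAAT 52 bases before it. Ndufa6 holds an NRF1 core 83 bases and a CCAAT 52 bases before the start. Atp5g2 holds overlapping NRF1 cores on the forward and reverse strands, 42 and 40 bases before the start, and Ndufb7 holds an ETS core 20 bases before it.

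Genes that build the same complexes were mostly higher where they passed. Of 47 assembly factors, all tested, 19 were higher and 2 lower in mutant libraries (40.4% and 4.26%). This stands beside 23.2% and 22.8% of all tested genes. The factors had a median log2 fold change of 0.20. Counts of higher and lower factors were 32 and 0 with equal totals, beside 47.2% and 7.4% of all genes. There the factor median was 0.504 and that of all tested genes 0.303. Counts were 21 and 2 after quantile normalization, beside 26.5% and 21.2%. Acad9, a complex I assembly factor, rose from 25.5 ± 1.19 to 44.3 ± 0.957 FPKM (SD, n = 3 in each; log2 fold change 0.78, limma adjusted p = 4.17e-05). Coa5, a complex IV assembly factor, was at 8.35, 9.22 and 9.88 FPKM in WT and 15.3, 14.8 and 14.9 FPKM in mutant libraries and rose, and Ndufaf4 rose from 2.55 ± 0.0451 to 4.95 ± 0.448 FPKM. Taco1, a translational activator of a mitochondrial complex IV subunit, rose from 5.16 ± 0.558 to 9.17 ± 0.916 FPKM. The 2 lower factors were Cox14 (76.1 to 64.0 FPKM) and Nubpl (12.2 to 9.23 FPKM). Cox14 lost its call in 8 and Nubpl in 9 of 17 alternatives, and with equal totals Cox14 had a positive value (0.08). The difference between assembly factors and subunits was not tested.

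Among 14 tested regulators of mitochondrial genes, 3 were higher and 3 lower (21.4% each way, near the 23.2% and 22.8% of all tested genes), with a median of -0.01. Gabpb1, the partner of GABPA in the factor that binds the ETS core, fell from 30.5 ± 1.80 to 20.4 ± 0.291 FPKM (SD, n = 3 in each; log2 fold change -0.56, limma adjusted p = 0.000288), a call that ended with equal totals (adjusted p = 0.0741). Gabpa itself was at 17.4 ± 0.735 and 17.1 ± 0.377 FPKM, and Nrf1 at 18.1 ± 0.354 and 18.9 ± 0.698 FPKM. Esrra, the estrogen-related receptor α gene, rose from 12.6 ± 0.315 to 17.5 ± 0.782 FPKM (limma adjusted p = 0.000694). Tefm and Polrmt, which transcribe mitochondrial DNA, rose by 0.60 and 0.30 on the log2 scale, and Tfb2m, their initiation factor, fell by 0.44, a call that ended with equal totals (adjusted p = 0.278). Yy1 also fell (40.6 to 36.1 FPKM, limma adjusted p = 0.0356), but its call was lost in 10 of 17 alternatives, and its value was 0.16 with equal totals. The coactivator gene Ppargc1a reached at most 0.39 FPKM.

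Of 18 pyruvate dehydrogenase and tricarboxylic acid cycle genes, 6 were lower and 1, Suclg1, was higher, with a median of -0.05. These are 33.3% and 5.56%, beside 22.8% and 23.2% of all tested genes. The lower ones included the succinate-CoA ligase gene Suclg2 (37.3 to 30.0 FPKM), the isocitrate dehydrogenase subunits Idh3b (91.5 to 69.8 FPKM) and Idh3g (87.8 to 67.2 FPKM) and the pyruvate dehydrogenase gene Pdha1 (84.7 to 67.8 FPKM). Leaving out WT replicate 2 left 1 lower gene, and leaving out WT replicate 1, mutant replicate 1 or mutant replicate 2 left 2. Of all genes, 17.0% to 17.8% were lower in these settings. With equal totals 10 were higher and 0 lower, beside 47.2% and 7.4% of all genes. After quantile normalization 4 were higher and 5 lower, beside 26.5% and 21.2%. The median of ratios gave 1 and 7, beside 22.3% and 23.8%. Removal of length and GC trends gave 1 and 6, beside 28.1% and 22.8%. Of 77 mitochondrial ribosomal protein genes, 13 were higher and 13 lower (16.9% each way, median 0.03), beside 23.2% and 22.8% of all tested genes. With equal totals 52 were higher and 3 lower, beside 47.2% and 7.4%. Other settings also ended the even split. Removal of length and GC trends gave 29 and 10, beside 28.1% and 22.8%. Quantile normalization gave 18 and 8, beside 26.5% and 21.2%, and library weights gave 16 and 24, beside 31.1% each way. Of 81 tested cytosolic ribosomal protein genes, 77 were lower (95.1%, median -0.83), beside 22.8% of all tested genes. With equal totals 76 were lower, beside 7.4%. After quantile normalization 37 were lower and 2 higher (median -0.15), beside 21.2% and 26.5%. Subunits encoded in mitochondrial DNA were looked for by their mt- names. Of these, 0 were found in the deposited values, so they were not analysed here.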

How the data were processed

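Expression was deposited as FPKM for every gene in each library, with lower and upper bounds, per the file headers. Reads were processed with TopHat and Cufflinks, per the submitters' processing notes, which name the build mm9. Of 23315 symbols found in GENCODE M21 (GRCm38), 98.9% lay over the M21 gene with the same symbol, so positions are read as GRCm38, with 1 added to each start. All values of the members had the status OK. Values were tested as log2(FPKM + 1) with limma 3.58.1 in R 4.3.3 (empirical Bayes with a trend), without covariates, over the 11385 genes averaging 1 FPKM or more, and p-values were adjusted by Benjamini-Hochberg (calls under 0.05). Log2 fold changes subtract WT from mutant, and folds are ratios of mean FPKM. The script was tested on simulated data. Transcript length and GC content are medians over GENCODE transcripts, found for 84 of the 85 members. Per complex, the text names the called members that changed most, the 2 with the highest means, all of complex II and all isoform sets. The others were named after their values were seen. Members and lists were chosen with earlier results of these data known. Alternatives covered pseudocount, filter, scaling, variance prior, library weights, replicate block, length and GC trends, threshold and each library left out. Tables and figures used Python 3.11.15, pandas 2.3.3 and matplotlib 3.10.9. The result for 1 called member is not reported here.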

Additional observations from a re-analysis of the deposited data

How the results depend on the processing

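The count of 15 lower members was 50 with library weights (62.5%, beside 31.1% of all genes), 9 after quantile normalization (11.2%, beside 21.2%), 9 with a replicate block (11.2%, beside 16.8%), 6 with equal totals (7.5%, beside 7.4%) and 8 at a threshold of 0.01, and leaving out a library gave 9 to 36. For all genes, the share called at 0.01 is not given here. The count of 1 higher member was 31 after quantile normalization (38.8%, beside 26.5% of all genes) and 37 with equal totals (46.2%, beside 47.2%). It was 10 without length and GC trends (12.7%, beside 28.1%). Leaving out a library gave 1 to 2 (1.25% to 2.5%, beside 16.9% to 22.4%). The member median of -0.145 was 0.104 after quantile normalization, 0.185 with equal totals and -0.017 without length and GC trends. Whether replicate numbers pair the libraries was not settled. Deviations from the group means correlated across genes at 0.127, 0.122 and -0.00735 for replicates 1 to 3. Libraries with different numbers correlated at -0.157 to 0.0619, and WT replicate 3 correlated best with mutant replicate 1 (0.0619).

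Signs also turned for these medians and genes. Without length and GC trends, complex I was at 0.021 and complex III at 0.04. After quantile normalization, complexes I, III and V were at 0.105, 0.194 and 0.089, Atp5b at 0.128, Atp5d at 0.054 and Sdhc at 0.008. With equal totals, complexes I, III, IV and V were at 0.216, 0.196, 0.011 and 0.097, Atp5b at 0.03, Ndufs7 at 0.018 and Sdhc at 0.135. With library weights, complex II was at -0.015 and Sdha at -0.03. Leaving out a library moved complex II to between -0.017 and 0.081 and Sdhb to between -0.042 and 0.11. Without the 16 called members, a setting added once the data had been seen, as was the one without Cox4i1 and Cox7a2l, the complex IV share differed by -0.766 percentage points, complex III by 0.23 (-0.133 with all members) and complex V by -1.395 (0.124 with all members). The number of reads is unknown, so depth limits cannot be stated.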
